A study of Homo sapiens with 6 samples.

Results

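The mitochondrial ribosomal protein genes were taken as every gene of the deposited count table named MRPL or MRPS followed by a number and at most 1 letter. That gave 77 of 26364 genes, 48 with the large-subunit prefix MRPL and 29 with the small-subunit prefix MRPS. Of the 77, 75 had enough counts to be tested, among 15611 genes tested in all.

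Mitochondria keep a small genome of their own, and a dedicated ribosome in the matrix translates its messages into core subunits of the respiratory chain and ATP synthase. The RNA of this ribosome comes from the mitochondrial genome, whereas its proteins are encoded in the nucleus, made in the cytosol and imported. Some of these proteins have a counterpart in the bacterial ribosome and others are found only in mitochondria. Promoters of such nuclear genes often carry binding letters for ETS factors of the GABP type, NRF1 and YY1.

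The libraries came from Ishikawa cells, a human endometrial adenocarcinoma line used as a model of estrogen response. The parental line was compared with 2 knockout clones, clone 1 and clone 2, that lack ETV4, a transcription factor of the ETS family. All 3 lines spent 5 days in hormone-depleted medium and then received either DMSO (0.1%) or estradiol (E2, 10 nM), with 1 poly(A)-selected library for each line and treatment. Each treatment thus had n = 2 knockout libraries and 1 parental library, and the labels give the exposure as 8 h in one field and 1 h in another. A difference between the clones and the parental line cannot be told apart from an effect of deriving a line from single cells.

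Total counts ran from 28037392 to 36829479 per library. ETV4 had 586 and 1063 counts in the parental line and 71 to 122 in the clones. Epithelial markers summed to between 2088 and 3047 CPM (counts scaled to library size with TMM factors) with 7 of 7 detected in every library, and stromal markers to 46.8 to 86.1 CPM, most of it COL1A1. Endothelial markers summed to 1.65 to 4.55 CPM and immune markers to 3.23 to 5.61 CPM, with PECAM1, CDH5 and CD3E at or near 0. The parental DMSO library stood apart. Its TMM factor was 0.899 against 1.01 to 1.04 in the other 5. The 100 genes with the highest mean CPM over the 6 libraries took 19.4% of its counts against 14.9% to 16.4%. Cytosolic ribosomal protein genes took 10.2% against 5.94% to 7.91%. The E2 and knockout tests are therefore also given without the parental DMSO library, and the clones are also set against the parental line within E2. The parental E2 difference and the interaction of E2 with genotype have no estimate without it.

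The members were expressed at moderate levels. Mean levels of the 75 tested genes over the 6 libraries ran from 11.1 CPM for MRPS18C to 230.9 CPM for MRPL51. Per kilobase of transcript, the highest level was that of MRPL51 at 461 CPM per kb, followed by MRPL49 at 324, MRPS23 at 194, MRPL3 at 160 and MRPL19 at 155 CPM per kb. These lengths are medians over annotated protein-coding transcripts, some of them short fragments, so the order is approximate. MRPL51, MRPL49 and MRPS23 belong to the proteins found only in mitochondria, and MRPL3 and MRPL19 have bacterial counterparts. The lowest tested levels per length were 12.1 CPM per kb for MRPS31, 13.3 for MRPL22 and 14.1 for MRPS30. The pseudogenes MRPS31P5, with 250 to 328 counts, and MRPL45P2, with 29 to 218, share sequence with MRPS31 and MRPL45, so how reads were divided among these copies is not known.

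A pair of members had almost no counts. MRPS18B, 1 of 3 human proteins related to bacterial protein S18, was listed at 0 counts in all 6 libraries, where 3 counts would correspond to 0.0815 to 0.107 CPM. MRPS24 had 1 count in clone 1 in DMSO, 2 in clone 2 in E2, 2 in parental cells in DMSO, and 0 elsewhere. The readthrough gene URGCP-MRPS24, which contains it, was listed at 0 throughout, while URGCP had 722 to 1311 counts. How the counting treated reads shared by overlapping genes is not given in the sources used here, so these zeros were not read as absence of the transcripts. The relatives MRPS18A and MRPS18C were measured, at means of 41.4 and 11.1 CPM over the 6 libraries.

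Together the members took 0.666% of all counts of parental cells in DMSO (95% Wilson interval 0.664% to 0.669%) and 0.528% (0.526% to 0.530%) in E2. Clone 1 had 0.552% (0.549% to 0.554%) in DMSO and 0.520% (0.518% to 0.523%) in E2. Clone 2 had 0.450% (0.447% to 0.452%) in DMSO and 0.513% (0.510% to 0.516%) in E2. These intervals cover counting error only. The highest and the lowest share were thus both in DMSO, and the 3 lines lay close together in E2, between 0.513% and 0.528%. In bulk RNA such a share cannot tell less message per cell from a different mix of cells. With the 100 genes of highest mean CPM over the 6 libraries left out of every library, the parental DMSO library was still the highest at 0.827%. The clone 2 DMSO library was the lowest at 0.530%.

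**Figure D1:**
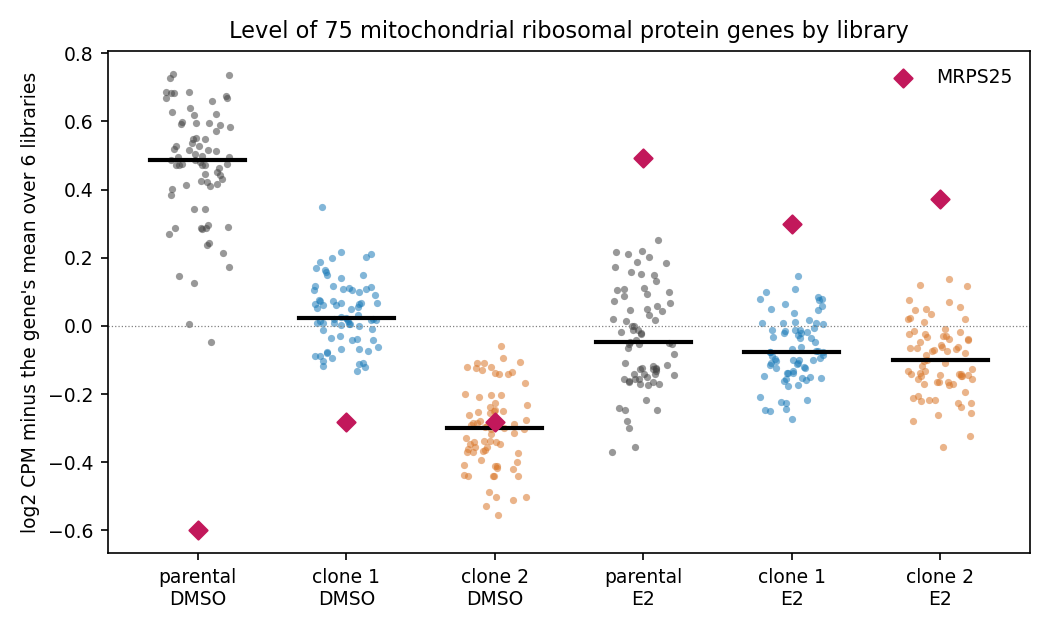
Each point is 1 of 75 genes, plotted as its log2 CPM in a library minus its own mean log2 CPM over the 6 libraries, with DMSO libraries on the left and E2 libraries on the right; black bars are medians. The parental DMSO library lies highest and clone 2 in DMSO lowest, the 3 E2 libraries lie together, and MRPS25 (diamonds) is lowest in the parental DMSO library and above its own mean in all 3 E2 libraries.

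Promoter sequence was examined because ETV4 binds the ETS core and E2 acts through the estrogen receptor. RefSeq promoter windows on GRCh38.p14, from 250 bases before to 50 after the start, were present for 68 of the 77 members, 11 of them with more than 1 window. The ETS core CCGGAAG, searched on both strands, occurred in 29 of 68 (42.6%), against 12.2% of 27305 genes with a window and 21.6% of the 10254 with at least 10 counts in every library. The YY1 core ATGGCGGC was in 18 of 68 (26.5%), against 3.67% of all and 6.98% of these expressed genes. The NRF1 core GCATGCGC was in 6 (8.82%), against 3.68% and 6.24%. The palindromic estrogen response element, GGTCA and TGACC with any 3 bases between them, was in 0 of 68 and in 0.0732% of all genes. Gene by gene these are matches of letters and not measured binding.

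The 250 bases before the start are shown, read along the gene's strand, for the member with the highest level per length, 3 members that the comparisons below turn on, and MRPS25, which ran against the rest. Capitals mark the ETS core in MRPL51 (2 matches), MRPL3 and MRPL48 and the NRF1 core in MRPL32, each on either strand. The MRPS25 stretch holds none of the 4 motifs. The windows lie at chr12:6493263-6493512 (minus strand) for MRPL51, chr3:131502972-131503221 (minus) for MRPL3, chr11:73787624-73787873 (plus) for MRPL48, chr7:42932126-42932375 (plus) for MRPL32 and chr3:15065316-15065565 (minus) for MRPS25.
MRPL51: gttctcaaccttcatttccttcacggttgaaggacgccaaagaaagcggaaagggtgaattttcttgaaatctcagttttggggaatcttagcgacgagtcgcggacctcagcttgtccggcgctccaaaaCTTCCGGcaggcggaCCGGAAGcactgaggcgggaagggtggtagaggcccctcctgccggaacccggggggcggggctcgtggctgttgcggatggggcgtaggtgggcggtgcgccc
MRPL3: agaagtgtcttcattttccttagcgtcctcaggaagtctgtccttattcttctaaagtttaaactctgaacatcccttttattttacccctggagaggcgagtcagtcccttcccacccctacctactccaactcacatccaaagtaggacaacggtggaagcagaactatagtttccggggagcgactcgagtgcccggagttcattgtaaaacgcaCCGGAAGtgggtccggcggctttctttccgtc
MRPL48: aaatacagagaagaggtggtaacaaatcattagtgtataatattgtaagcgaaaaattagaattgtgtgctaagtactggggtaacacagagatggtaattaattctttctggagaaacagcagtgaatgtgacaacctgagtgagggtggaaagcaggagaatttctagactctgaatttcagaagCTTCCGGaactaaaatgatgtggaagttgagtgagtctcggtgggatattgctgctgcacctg
MRPL32: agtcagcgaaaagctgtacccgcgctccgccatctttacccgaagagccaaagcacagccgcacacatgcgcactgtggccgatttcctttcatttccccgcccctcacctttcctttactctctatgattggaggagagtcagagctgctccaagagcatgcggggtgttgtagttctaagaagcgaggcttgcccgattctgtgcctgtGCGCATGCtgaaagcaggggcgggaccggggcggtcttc
MRPS25: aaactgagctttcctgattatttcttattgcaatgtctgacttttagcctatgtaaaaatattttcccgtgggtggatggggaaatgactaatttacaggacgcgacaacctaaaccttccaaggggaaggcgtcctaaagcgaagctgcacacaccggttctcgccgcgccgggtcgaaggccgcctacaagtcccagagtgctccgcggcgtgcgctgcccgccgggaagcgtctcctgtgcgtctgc

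The first comparison asked how the members moved with E2 in the parental line, from its pair of libraries. They were mostly lower in E2. MRPL48, a large-subunit protein with no bacterial counterpart, had 80.8 CPM in DMSO against 39.3 CPM with E2. MRPS15, the counterpart of bacterial S15, had 223 and 119 CPM, and MRPL32, a zinc-binding large-subunit protein, 104 and 59.3 CPM. The median log2 difference (E2 minus DMSO, prior count 2) was -0.56 over the 75 members, from -1.04 for MRPL48 to 1.09 for MRPS25, against 0.0 over all tested genes. Below 0 were 69 of 75 members, where 50.0% of all genes were, and 33 were at least 1.5-fold lower, where 18.8% of all genes were. The other 6 members were MRPS25, MRPS5, MRPL19, MRPL35, MRPS2 and MRPS26. With 1 library each, this difference has no replicate check, and it rests on the parental DMSO library described above.

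The clones did not show that size of difference. In clone 1 the median was -0.10, with 58 of 75 members below 0 (50.0% of all genes) and 0 members were at least 1.5-fold away from DMSO in either direction, where 6.93% of all genes were lower and 9.73% higher by that fold. In clone 2 the sign was opposite: the median was 0.18, with 67 of 75 members above 0 (52.6% of all genes), and 1 member, MRPS25, was at least 1.5-fold higher (9.12% of all genes). MRPL32 went from 65.1 to 62.8 CPM in clone 1 and from 45.8 to 64.2 CPM in clone 2. MRPS15 went from 148 to 142 CPM in clone 1 and from 106 to 134 CPM in clone 2. MRPL13, the counterpart of bacterial L13, went from 116 to 64.2 CPM in parental cells, from 67.8 to 68.9 CPM in clone 1 and from 52.6 to 63.3 CPM in clone 2. For these 3 genes the parental DMSO library was the highest and the clone 2 DMSO library the lowest of the 6.

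Read jointly, 49 of 75 members were lower in E2 in the parental line and clone 1 and higher in clone 2, a combination that 14.8% of all genes showed. In 13 members E2 was lower in the parental line and higher in both clones (6.51% of all genes). MRPL28, MRPL10, MRPL53, MRPL44, MRPL40, MRPS27 and MRPS18A were lower in E2 in all 3 lines, 7 of 75 where 25.2% of all genes were. MRPL10 anchors the stalk that recruits translation factors, and it went from 53.9 to 36.3 CPM in parental cells, from 41.9 to 32.2 CPM in clone 1 and from 34.7 to 29.9 CPM in clone 2. MRPL19, MRPL35, MRPS5 and MRPS25 were higher in E2 in all 3 lines, 4 of 75 where 27.8% of all genes were. Of these 4, MRPS25 had the largest differences by far, 1.09 in parental cells, 0.58 in clone 1 and 0.65 in clone 2.

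The same libraries can be read as clones against the parental line within a treatment. In DMSO the median log2 difference (clone minus parental) was -0.45 for clone 1 and -0.82 for clone 2. Both clones lay below the parental line for 74 of 75 members, against 39.2% of all genes, with MRPS25 as the exception. The order clone 2 below clone 1 below parental held for 73 of 75 members (30.8% of all genes), with MRPL30 and MRPS25 outside it. At least 1.5-fold below the parental line were 16 members in clone 1 (8.09% of all genes) and 59 in clone 2 (19.2% of all genes). MRPL3, the counterpart of bacterial L3, had 241 CPM in parental cells, 188 CPM in clone 1 and 118 CPM in clone 2. MRPL48 followed the same order at 80.8, 59.0 and 39.2 CPM.

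In E2 the lines nearly coincided. The median difference from the parental line was -0.02 for clone 1 and -0.05 for clone 2, and both clones lay below it for 31 of 75 members, against 32.2% of all genes. In neither clone did any of the 75 members differ from the parental line by 1.5-fold in E2, whereas 16.0% of all genes did in clone 1 and 15.4% in clone 2. In the same order of lines, MRPL3 had 187, 184 and 148 CPM with E2, and MRPL48 had 39.3, 53.6 and 43.7 CPM. In 18 of 75 members all 4 clone libraries were below both parental libraries, against 7.82% of all genes. MRPL1, the counterpart of bacterial L1, was among them, with 49.2 and 37.0 CPM in the parental line and 23.5 to 31.1 CPM in the clones.

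**Figure D2:**
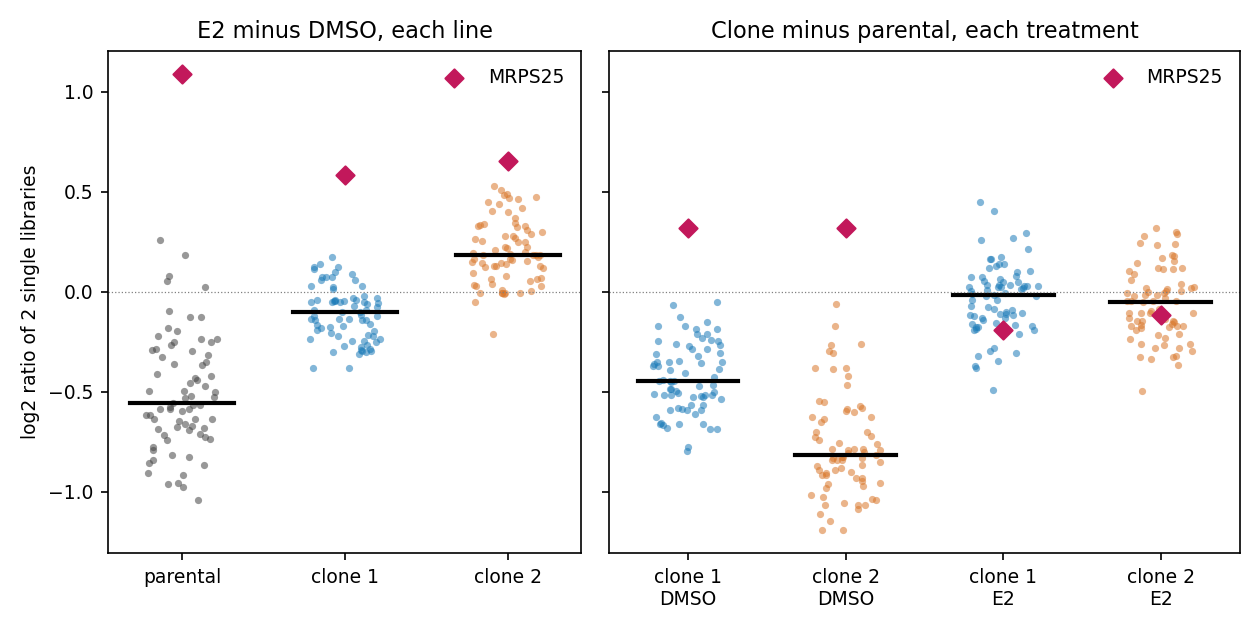
Log2 ratios of single libraries for 75 genes (points), with medians as black bars and MRPS25 as diamonds: on the left E2 minus DMSO in each line, on the right each clone minus the parental line, for DMSO and for E2. The medians on the left are -0.56, -0.10 and 0.18, and those on the right are -0.45 and -0.82 in DMSO and -0.02 and -0.05 in E2.

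GC content and transcript length went with some of these differences and not with others. Across the tested genes with a reference transcript, Spearman's rho of the parental E2 difference with GC content was 0.327 over all 14607 genes and 0.20 over the 75 members. With transcript length it was 0.221 over all genes and 0.035 over the members. In clone 2 the rho of the E2 difference with GC content was -0.023 over all genes and -0.268 over the members. Genes of 1 pair of libraries are not independent replicates. The members had a median transcript length of 1035 bases and a median GC content of 50.3%, against 1791 bases and 50.2% over all genes. After each library's trend with GC content and length was removed, the parental E2 median was -0.33. Then 64 of 75 members were below 0, against 51.3% of all genes. At least 1.5-fold lower were 15 of 75 (20%), against 14.9% of all genes. The DMSO medians were then -0.35 for clone 1 and -0.61 for clone 2. At least 1.5-fold below the parental line in DMSO were 4 of 75 members (5.33%) in clone 1, against 6.72% of all genes. In clone 2 these were 41 of 75, against 14.3% of all genes. With scaling by total counts the parental E2 median was -0.38, a scaling that moves every gene of that comparison up by 0.18.

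A test of E2 across all 3 lines, adjusted for genotype, used the quasi-likelihood F test of edgeR, with p-values adjusted by Benjamini-Hochberg over all genes. None of the 75 members passed (0 called, against 1.13% of all genes), and 2 had an unadjusted p under 0.05, against 20.4% of all genes. DESeq2's Wald test called 1 member, against 7.58% of all genes with an adjusted p. With limma-voom 0 members were called, against 174 of 15611 genes. The median log2 difference was -0.12, with 65 members below 0 and 10 above, against 51.8% of all genes below 0. That median was 0.03 without the parental DMSO library and 0.04 without both parental libraries, so its sign turned without them.

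MRPS25, a small-subunit protein without a bacterial counterpart, had the largest difference in this test. From DMSO to E2 its level went from 33.6 to 71.7 CPM in the parental line, from 41.95 to 62.8 CPM in clone 1, and from 41.94 to 66.0 CPM in clone 2. All 3 E2 libraries lay above all 3 DMSO libraries, and in the clones the level was 41.9 ± 0.0120 CPM in DMSO and 64.4 ± 2.29 CPM in E2 (SD, n = 2). The log2 difference was 0.78 (SE 0.13), and edgeR gave an adjusted p of 0.0588, or 0.0530 with line as a replicate block. It passed in DESeq2's Wald test at an adjusted p of 2.11e-04 and in edgeR with the GC and length correction at 0.0421, a setting that called 2.29% of all genes. Without the parental DMSO library it was 0.60, with an adjusted p of 0.223 in edgeR.

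The next members in this test were much closer to 0. MRPS5 was at 0.17 (SE 0.10), MRPL19 at 0.15 (SE 0.11) and MRPL12, a stalk protein also reported to bind the mitochondrial RNA polymerase, at 0.09 (SE 0.16). On the other side MRPL45, which sits at the peptide exit, MRPL40 and MRPL10 were at -0.39 (SE 0.20, 0.21 and 0.13), and MRPL49 was at -0.38 (SE 0.23). When clone 2 was left out, 13 members passed, against 21.6% of all genes: MRPS25 was higher and 12, among them MRPL10, MRPL40, MRPL45 and MRPL49, were lower. When the clone 2 DMSO library alone was left out, 3 passed, against 10.9% of all genes. In both settings the members' share lay below that of all genes.

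**Figure D3:**
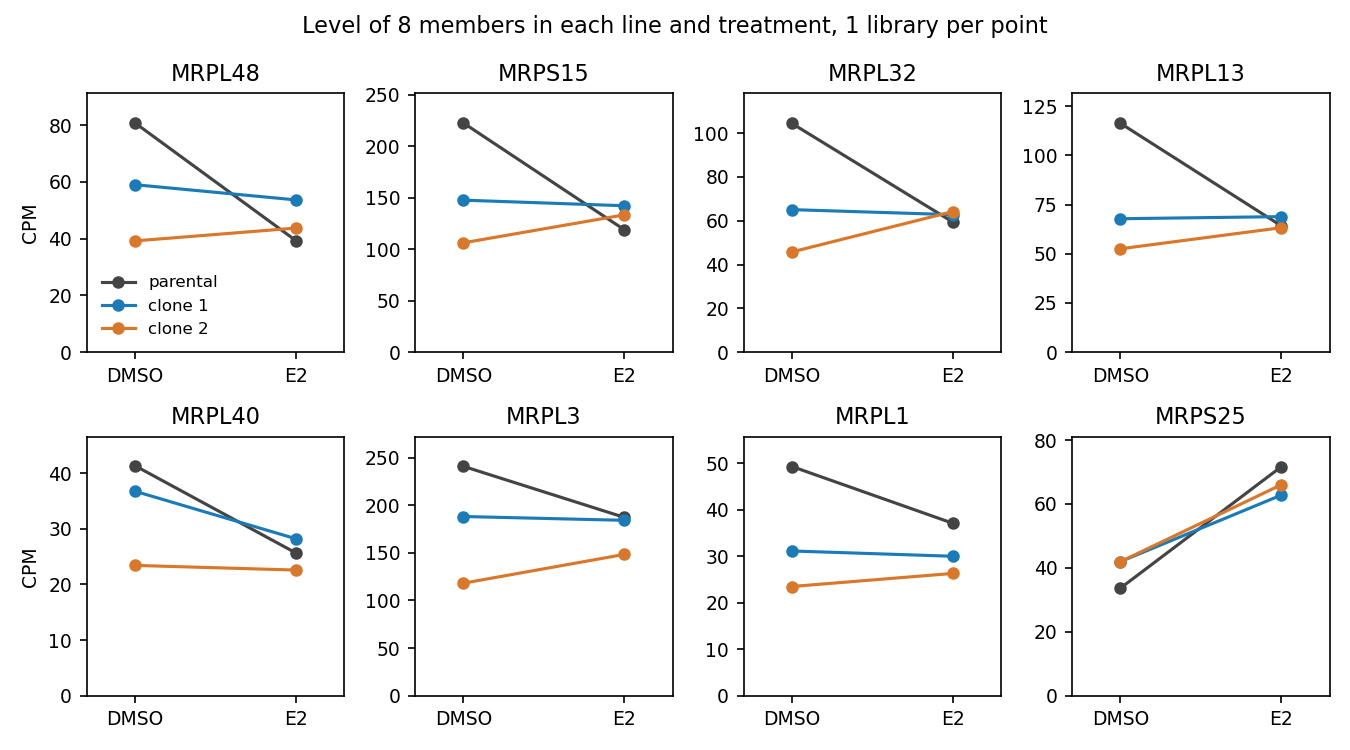
Level (CPM, axis from 0) of 8 genes in DMSO and E2 for the parental line, clone 1 and clone 2, with 1 library per point. In MRPL48, MRPS15, MRPL32 and MRPL13 the lines are farther apart in DMSO than in E2, MRPL1 is highest in the parental line under both treatments, and MRPS25 is higher in E2 in all 3 lines.

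The knockout effect was tested with treatment in the model. None of the 75 members passed in edgeR's quasi-likelihood test (0 called, against 0.327% of all genes). DESeq2 also called 0 of them, against 460 of 14703 genes, and limma-voom 0, against 57 of 15611 genes. In edgeR an unadjusted p under 0.05 was found for 12 members, against 11.4% of all genes. The edgeR fit treats the DMSO and E2 libraries of a line as independent. With line as a random factor in limma-voom the count was 6, against 1493 of 15611 genes, and 0 members passed, against 46 genes. In the edgeR fit the median log2 difference (clones minus parental) was -0.34, and 74 of 75 members were below 0, against 48.3% of all genes. The exception was MRPS25 at 0.07 (SE 0.14). The lowest were MRPL1 at -0.63 (SE 0.17, adjusted p 0.272 in edgeR), MRPL47 at -0.53 (SE 0.20), MRPS18C at -0.51 (SE 0.21) and MRPL13 at -0.48 (SE 0.24). The median was -0.05 without the parental DMSO library and -0.64 without the parental E2 library. MRPL13 turned sign without the parental DMSO library, to 0.034.

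Whether the E2 effect differed between the clones and the parental line was tested by the interaction. In edgeR's quasi-likelihood test 0 of 75 members and 0% of all genes passed, and 20 members had an unadjusted p under 0.05, against 7.62% of all genes. DESeq2 gave an adjusted p for 23 of the 75 and called 0, against 26 of the 2900 genes with an adjusted p. With limma-voom 0 members and 0 of 15611 genes were called. The median interaction was 0.57, with 70 of 75 members above 0 (47.3% of all genes), meaning that the E2 difference lay higher in the clones. The labels name the line of each library, so the DMSO and E2 libraries of a line are paired. With line as a replicate block 35 of 75 members passed, all higher in the clones, against 8.90% of all genes in that direction. That fit has 1 residual degree of freedom, which comes from the 2 clones, and edgeR set its prior degrees of freedom to infinity, so its p-values rest on a spread common to all genes. They also rest on the single parental DMSO library.

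With the block, MRPL48 had the highest interaction at 1.05 (SE 0.22, adjusted p 1.78e-04 in edgeR). MRPS15 followed at 1.04 (SE 0.25), MRPL32 at 1.03 (SE 0.23) and MRPL13 at 1.00 (SE 0.23), with adjusted p-values in edgeR of 0.00106, 3.30e-04 and 5.29e-04. The lowest were MRPS25 at -0.47 (SE 0.22, adjusted p 0.132 in edgeR), MRPS5 at -0.14 (SE 0.22), MRPS26 at -0.13 (SE 0.22) and MRPS2 at -0.07 (SE 0.22). With the block and the GC and length correction together, 21 members passed as higher and MRPS25 passed as lower, at -0.64 (adjusted p 0.0227 in edgeR), against 9.51% of all genes in either direction.

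**Figure D4:**
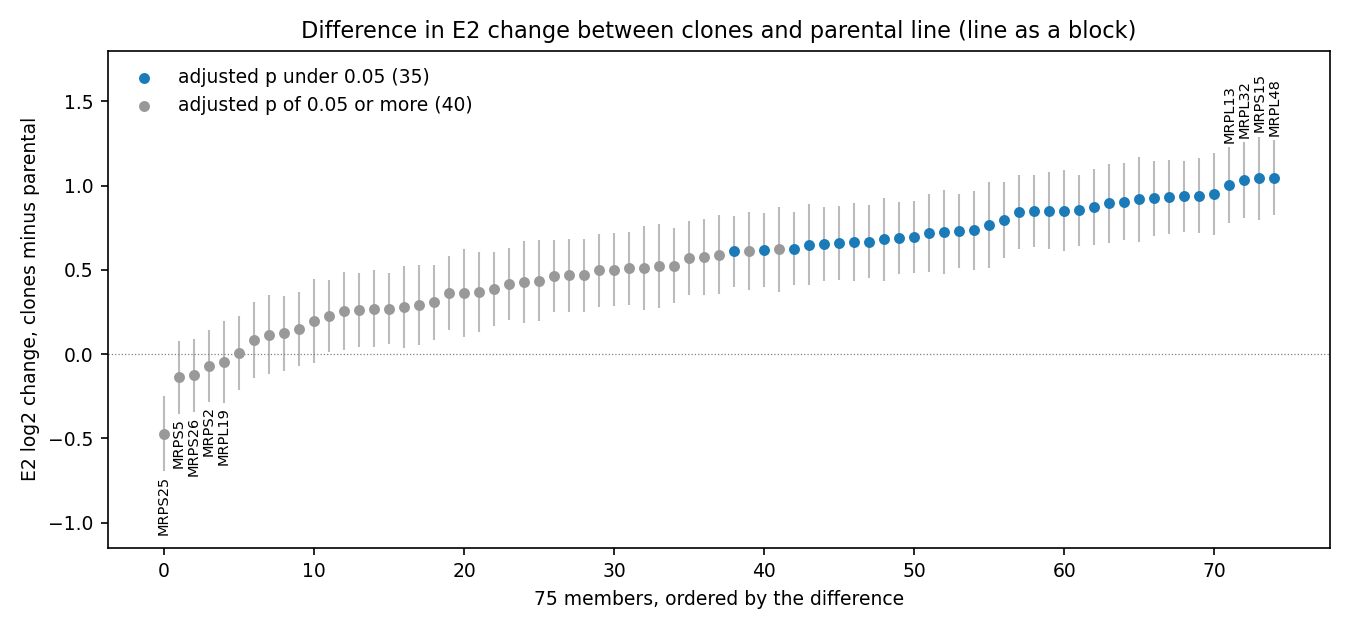
Difference in E2 log2 change between the clones and the parental line for each of 75 genes, ordered by size, from the fit with line as a block; bars are 1 standard error. The 35 genes past an adjusted p of 0.05 (blue) all lie above 0, and MRPS25 is lowest at -0.47.

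The clones were also compared with each other over their 4 libraries, with treatment in the model. In edgeR's quasi-likelihood test 5 members passed, all lower in clone 2 (5 of 75, against 8.08% of the 14881 genes tested there), a share near the background. These were MRPL3 at -0.48 (SE 0.15), MRPL40 at -0.48 (SE 0.13), MRPL48 at -0.44 (SE 0.13), MRPS6, the counterpart of bacterial S6, at -0.43 (SE 0.13), and MRPL15 at -0.38 (SE 0.13). Their adjusted p-values in edgeR ran from 0.00244 for MRPL40 to 0.0265 for MRPL15. With 1 library per clone and treatment, this fit has 1 residual degree of freedom, the difference in E2 change between the clones. The p-values therefore do not describe the spread between replicate libraries of a clone or between clones. DESeq2 called 1 of them, MRPL3, against 3.59% of all genes as lower. The GC and length correction called 13 members, all lower, against 9.24% of all genes in that direction. The median over members was -0.18, and it came mostly from DMSO, where clone 2 lay below clone 1 for 74 of 75 members (49.9% of all genes); in E2 it did so for 44 (49.4% of all genes). The members highest in clone 2 relative to clone 1 were MRPS36 at 0.11, MRPL54 at 0.10, MRPS25 at 0.04 and MRPS33 at 0.03, and none of these 4 passed.

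Grouped by the symbol prefixes MRPL and MRPS, the members had medians close together in the parental E2 difference and the knockout test. The parental E2 median was -0.58 over the 48 MRPL genes and -0.50 over the 27 tested MRPS genes, and the knockout medians were -0.34 and -0.32. In the interaction with the block the medians were 0.62 and 0.50. There 26 of 48 MRPL and 9 of 27 MRPS genes passed as higher, against 8.90% of all genes. With the GC and length correction added 16 and 5 passed as higher, against 4.95% of all genes, and the medians were 0.48 and 0.31. Among members with a bacterial counterpart 17 of 46 passed with the block, and among those found only in mitochondria 17 of 28, with medians of 0.51 and 0.67. With the correction added, 9 and 12 of them passed as higher. None of these subgroups was tested against another.

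A few members have roles that depart from their symbol. MRPS30 and MRPS18A sit in the large subunit of the mammalian mitochondrial ribosome, and MRPS36 has been assigned to the 2-oxoglutarate dehydrogenase complex. MRPS30 was at 28.8 (DMSO) and 24.5 CPM (E2) in parental cells and at 19.7 to 24.7 CPM in the clones. MRPS18A was at 58.3 and 40.4 CPM in the parental line and at 34.9 to 40.8 CPM in the clones. MRPS36 was at 40.8 CPM in parental cells in DMSO, against 26.1 to 30.8 CPM in the other 5 libraries. Its interaction with the block was 0.73 (SE 0.22, adjusted p 0.0103 in edgeR), and it was 0.26 with an adjusted p of 0.428 once the GC and length correction was added.

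ETS letters in the promoter went with no visible difference in these values. Medians are given for the 29 members with the core, then for the 37 tested members with a window but no core. They were -0.34 and -0.33 for the knockout difference and -0.53 and -0.58 for the parental E2 difference. For the interaction, here from the fit without the block, they were 0.50 and 0.61. In DMSO the medians of clone 2 minus the parental line were -0.82 and -0.83. Among the promoters shown above, MRPL51 with 2 cores had a knockout difference of -0.34 (SE 0.20), and MRPS15, whose window holds no core and is not printed here, had -0.33 (SE 0.25).

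Genes that act with the mitochondrial ribosome were read from lists of known factors. Their calls in the interaction with the block stand against 8.90% of all genes passing as higher and 6.92% as lower, and against 4.95% and 4.56% once the GC and length correction is added. The 6 ribosome proteins that carry other symbols resembled the members. Their parental E2 median was -0.40 and their knockout median -0.36, and in the interaction with the block 2 of 6 passed as higher: CHCHD1 at 0.84 (SE 0.22) and the peptidyl-tRNA hydrolase ICT1 at 0.89 (SE 0.23). The 15 translation factors had a parental E2 median of -0.12 and an interaction median of 0.05, and 2 passed with the block, GFM2 at 0.62 (SE 0.23) and MTRF1 at 0.76 (SE 0.24). The 20 mitochondrial aminoacyl-tRNA synthetase and amidotransferase genes had medians of -0.04 and 0.01, with RARS2 passing as higher at 0.71 (SE 0.23) and AARS2 as lower at -0.78 (SE 0.22). The 24 assembly and ribosomal RNA modification genes had medians of -0.13 and 0.16, with FASTKD2 at 0.66 (SE 0.23) and TFB1M at 0.75 (SE 0.25) passing. With the correction added, 2 of the 6 ribosome proteins and 1 of the 24 assembly genes passed as higher, and 0 of the translation factors and 0 of the synthetase and amidotransferase genes passed.

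Of the 9 mitochondrial transcription and replication genes, 4 passed as higher and 2 as lower in the interaction with the block, among them TEFM, an elongation factor, at 1.08 (SE 0.22) and POLG, the DNA polymerase, at -0.71 (SE 0.23). With the correction added 1 passed as higher and 2 as lower, and the median went from 0.60 to 0.076. In the E2 test over the 3 lines POLRMT, the mitochondrial RNA polymerase, rose by 0.68 (SE 0.11, adjusted p 0.0451 in edgeR). It was the 1 gene of these 5 lists that passed in that test, and none passed in the knockout test. No row of the table carried the name of a mitochondrially encoded messenger RNA on the list used.

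The cytosolic ribosomal protein genes and the nuclear-encoded respiratory chain genes likewise lay below the parental level in both clones in DMSO, for 72 of 74 and 69 of 73 genes. The order clone 2 below clone 1 below parental in DMSO held for 65 of 74 and 68 of 73 of them, beside 73 of 75 members. In E2 the lists differed in sign: the median of clone 2 minus the parental line was -0.06 for the cytosolic ribosomal protein genes, 0.09 for the respiratory chain genes and -0.05 for the members, differences that were not tested. In the parental line their E2 medians were -0.80 over 74 genes and -0.68 over 73 genes, beside -0.56 for the members, and 60 of 74 and 45 of 73 were at least 1.5-fold lower, beside 33 of 75. In the interaction with the block 43 of 74 and 46 of 73 passed as higher, beside 35 of 75. The knockout medians were -0.36 and -0.30, beside -0.34. The pattern was therefore not shown to be particular to the mitochondrial ribosome.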

How the data were processed

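Gene expression was measured by poly(A) RNA-seq in 6 libraries of 3 Ishikawa lines. The authors deposited whole-number counts per gene; HISAT2, SAMtools, Subread, DESeq2 and hg19 are named in the submitters' processing notes, without versions. The use of strand and the treatment of multi-mapped reads are not given in the sources used here.

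Counts were tested in R 4.3.3 with edgeR 4.0.16 (filterByExpr, TMM, quasi-likelihood, Benjamini-Hochberg over all genes, threshold 0.05). Ratios of single libraries used CPM with a prior count of 2 and carry no p-value. Standard errors are the log2 difference over the square root of F. The 4 edgeR tests without the replicate block or the GC and length correction were checked on simulated counts. The simulated log2 changes were of size 2, with no differences between lines. Fits with the block or the correction were not checked this way. Members named were those past the threshold (at most 8 per direction), otherwise up to 4 per direction with the largest difference in each test, the 5 highest and 5 lowest levels, and 6 genes whose role departs from the symbol; others were chosen after their values were seen. Alternatives were other scalings, filters, DESeq2 1.42.0, limma-voom (limma 3.58.1), a GC and length correction from GENCODE transcripts (lowess span 0.3), the replicate block and libraries left out. The members and lists were chosen with earlier results of these data known. Nothing says that libraries came from separate cultures, so p-values measure the spread between these libraries.

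Libraries pair by line, per the labels: the clone 2 to clone 1 difference had a correlation between treatments of 0.626 over all genes and 0.455 over members. Counts of the clones differed beyond sampling noise, with a chi-square per degree of freedom of 72.2 in DMSO and 40.0 in E2.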

Additional observations from a re-analysis of the deposited data

Results flagged for a closer look

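In edgeR's interaction test with the replicate block 35 of 75 members passed, all higher in the clones, against 8.90% of all genes in that direction. Without the block 0 members and 0% of all genes passed. With the block 43 of 74 cytosolic ribosomal protein genes and 46 of 73 respiratory chain genes also passed as higher. MRPL48 had an interaction log2 of 1.05, MRPS15 of 1.04, MRPL32 of 1.03 and MRPL13 of 1.00 with the block. In 13 of 75 members (6.51% of all genes), counted by sign alone, E2 was lower than DMSO in the parental line and higher in both clones. That pattern was not tested. Each of these values uses the parental DMSO library, whose TMM factor was 0.899 and whose cytosolic ribosomal protein genes took 10.2% of the counts. The part of that library's composition in these results was not tested.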

How the results depend on the processing

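With the replicate block the interaction called 35 members, all higher, against 8.90% of all genes in that direction. With the block and the GC and length correction it called 22, against 9.51% of all genes in either direction. The block changed no call of a member in the E2 or knockout test. The E2 test called 1 member, MRPS25, in DESeq2 (7.58% of all genes) and with the GC and length correction (2.29%). It also did so with that correction and the block (1048 of 15611 genes). Clone 2 against clone 1 called 1 in DESeq2 (3.59% of all genes as lower) and 13 with the correction (9.24% as lower). Leaving out libraries or lines gave 0 to 13 calls in the E2 test, with a median of -0.32 to 0.044. The most calls came without clone 2, where 21.6% of all genes passed. The knockout median ran from -0.64 to -0.053 and the interaction median from 0.39 to 0.77 with libraries left out. The correction moved the median of clone 1 minus the parental line in E2 to -0.049. Both clones then lay below the parental line in E2 for 40 of 75 members, against 33.6% of all genes. Without the correction these were 31 of 75 and 32.2%. For E2 minus DMSO in clone 2, median-ratio factors left 3 members below 0. With TMM these were 8 of 75, against 47.4% of all genes. Without the 100 genes of highest mean CPM the members' share was 0.827% and 0.620% in the parental line (DMSO, E2). It was 0.660% and 0.618% in clone 1, and 0.530% and 0.606% in clone 2.

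The sign of these single genes changed in some settings. In the E2 test MRPS18C was at 0.040 with total counts. With the correction, MRPS18C was at 0.16 (0.16 with the block), MRPS30 at 0.041 (0.040) and MRPS36 at 0.015 (0.013). With the correction in the interaction, MRPS18C was at -0.084 (-0.095 with the block) and MRPS2 at 0.081 (0.087). Between clones MRPS18A was at 0.013 with total counts, and with the correction MRPL54 was at -0.048 and MRPS18C at 0.056. With libraries left out, the E2 test gave MRPL12 -0.060 to 0.19, MRPS18C -0.27 to 0.11, MRPS30 -0.18 to 0.028 and MRPS36 -0.34 to 0.089. The knockout test gave MRPL13 -0.95 to 0.034, MRPS25 -0.16 to 0.32 and MRPS36 -0.59 to 0.13, and the interaction gave MRPS2 -0.17 to 0.0068. The cause of these moves was not tested.

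One parental library per treatment limits every comparison with that line, and counting error is small beside it. The clone comparison was not run with a library left out, and the interaction has no estimate without a parental library.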
